A study of Homo sapiens with 8 samples.

Results

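The 9p21 locus was described here by its H3K27ac peaks in MIA PaCa-2 cells. Its 7 members, *CDKN2A*, *CDKN2B*, *MTAP*, *DMRTA1*, *KLHL9*, *FOCAD* and *MLLT3*, were chosen by name out of 19974 protein-coding genes, together with every peak on chromosome 9 from base 20500000 to base 24000000 (GRCh38), where 25 protein-coding genes lie. The MP2_HDAC1_OE list held 0 of its 25045 peaks there and the MP2_NTC list 0 of its 22569. The question was where peaks stop and restart around *CDKN2A*, and how the locus differs from the genes that flank it.

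MIA PaCa-2 is an epithelial cell line from a human pancreatic carcinoma. In both lines studied, the cells stably carried the CRISPR activation system (lentiSAMv2 with lentiMPHv2). In MP2_HDAC1_OE its guide RNA was aimed at *HDAC1*, which encodes a histone deacetylase, and in MP2_NTC the guide was non-targeting. Each condition was 1 stable line, with 2 H3K27ac samples and 2 control samples made without antibody, and nothing in the labels says that the 2 samples came from separate cultures. The authors deposited 1 list of reproducible peaks per line that pools its samples. The lists therefore hold no replicates, no counts of reads and no depth, and no test between the lines was possible.

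H3K27ac, the acetylation of lysine 27 of histone H3, marks active promoters and enhancers. *CDKN2A* encodes p16INK4a, which inhibits CDK4 and CDK6, and from a separate upstream start p14ARF, which binds and inhibits MDM2. *CDKN2B* encodes p15INK4b, another inhibitor of both kinases, and *MTAP* encodes the enzyme that recycles methylthioadenosine to methionine. Loss of DNA at 9p21 is frequent in pancreatic cancer and is known in MIA PaCa-2. Deleted DNA and DNA without H3K27ac leave the same blank in a list of peaks and cannot be told apart in these files, which hold no copy number.

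The promoter sequences that the peaks missed are shown for *CDKN2A*, *CDKN2B*, *MTAP* and *RPS6*, the gene of the small ribosomal subunit nearest to the left edge of the blank, beside that of *DENND4C*, the last gene before it with a peak. Each run is the 250 bases before an annotated start (RefSeq, GRCh38.p14), written 5′ to 3′ on the strand of the gene, with every CG in capitals.
CDKN2A, farther start, chr9:21995325-21995574, minus strand: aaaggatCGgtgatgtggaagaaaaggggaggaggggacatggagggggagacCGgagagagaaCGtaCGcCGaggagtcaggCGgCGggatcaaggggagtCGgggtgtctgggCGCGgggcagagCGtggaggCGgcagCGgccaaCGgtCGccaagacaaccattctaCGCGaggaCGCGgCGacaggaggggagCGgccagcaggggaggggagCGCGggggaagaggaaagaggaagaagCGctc
CDKN2A, nearer start, chr9:21974858-21975107, minus strand, inside the gene body: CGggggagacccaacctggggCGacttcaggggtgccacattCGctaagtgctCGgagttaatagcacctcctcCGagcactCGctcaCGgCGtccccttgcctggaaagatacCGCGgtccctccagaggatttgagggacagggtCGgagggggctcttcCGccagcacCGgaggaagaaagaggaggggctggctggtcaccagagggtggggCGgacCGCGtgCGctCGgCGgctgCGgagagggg
CDKN2B, chr9:22009306-22009555, minus strand: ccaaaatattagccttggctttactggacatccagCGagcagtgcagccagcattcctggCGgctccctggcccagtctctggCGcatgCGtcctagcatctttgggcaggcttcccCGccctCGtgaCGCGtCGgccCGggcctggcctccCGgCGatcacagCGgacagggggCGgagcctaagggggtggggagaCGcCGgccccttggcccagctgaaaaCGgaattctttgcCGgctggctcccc
MTAP, chr9:21802386-21802635, plus strand: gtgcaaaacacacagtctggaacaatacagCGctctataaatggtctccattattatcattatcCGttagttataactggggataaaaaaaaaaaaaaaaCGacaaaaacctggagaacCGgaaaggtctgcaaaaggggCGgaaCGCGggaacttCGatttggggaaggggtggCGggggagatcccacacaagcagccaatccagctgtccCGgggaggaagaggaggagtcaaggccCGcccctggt
RPS6, chr9:19380237-19380486, minus strand: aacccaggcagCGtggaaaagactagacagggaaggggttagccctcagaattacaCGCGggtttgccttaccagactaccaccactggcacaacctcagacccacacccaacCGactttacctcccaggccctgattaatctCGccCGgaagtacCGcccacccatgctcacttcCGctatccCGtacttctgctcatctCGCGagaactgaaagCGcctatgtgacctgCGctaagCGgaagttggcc
DENND4C, first start, chr9:19230263-19230512, plus strand: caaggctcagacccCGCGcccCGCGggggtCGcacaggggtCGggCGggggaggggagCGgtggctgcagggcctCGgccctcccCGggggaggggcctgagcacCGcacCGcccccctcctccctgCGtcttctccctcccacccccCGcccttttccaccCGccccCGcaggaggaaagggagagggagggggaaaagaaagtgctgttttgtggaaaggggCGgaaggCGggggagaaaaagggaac

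These runs held 24 CG in the farther and 20 in the nearer *CDKN2A* promoter, 18 in *CDKN2B*, 11 in *MTAP* and 14 in *RPS6*, and the *DENND4C* run held 18. Only the *DENND4C* run, of the 6 shown, was crossed by peaks, 2 of MP2_HDAC1_OE and 2 of MP2_NTC. CG-dense promoters are the kind that most often carried a peak in these cells, as described further on.

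Peaks stopped and restarted at nearly the same bases in both lists. The last peak on the left ended just inside *DENND4C*, which encodes an activator of a Rab GTPase, and the first on the right lay at the end of *CAAP1*, which encodes an inhibitor of apoptosis. The peak-free stretch ran from 19230874 to 26892390 of chromosome 9 in MP2_HDAC1_OE and from 19230894 to 26892418 in MP2_NTC, a length of 7.66 Mb in each. The left edges differed by 20 bp and the right edges by 28 bp. The stretch reached 1.27 Mb to the left and 2.89 Mb to the right of the 3.5 Mb first set for the locus. It held 103 annotated genes of all kinds, of which 31 were protein-coding, and all 7 members lay within it. Since the stretch is defined as a gap between peaks, its genes have 0 peaks by construction, and the counts of 0 given for them describe what it contains.

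**Figure D1:**
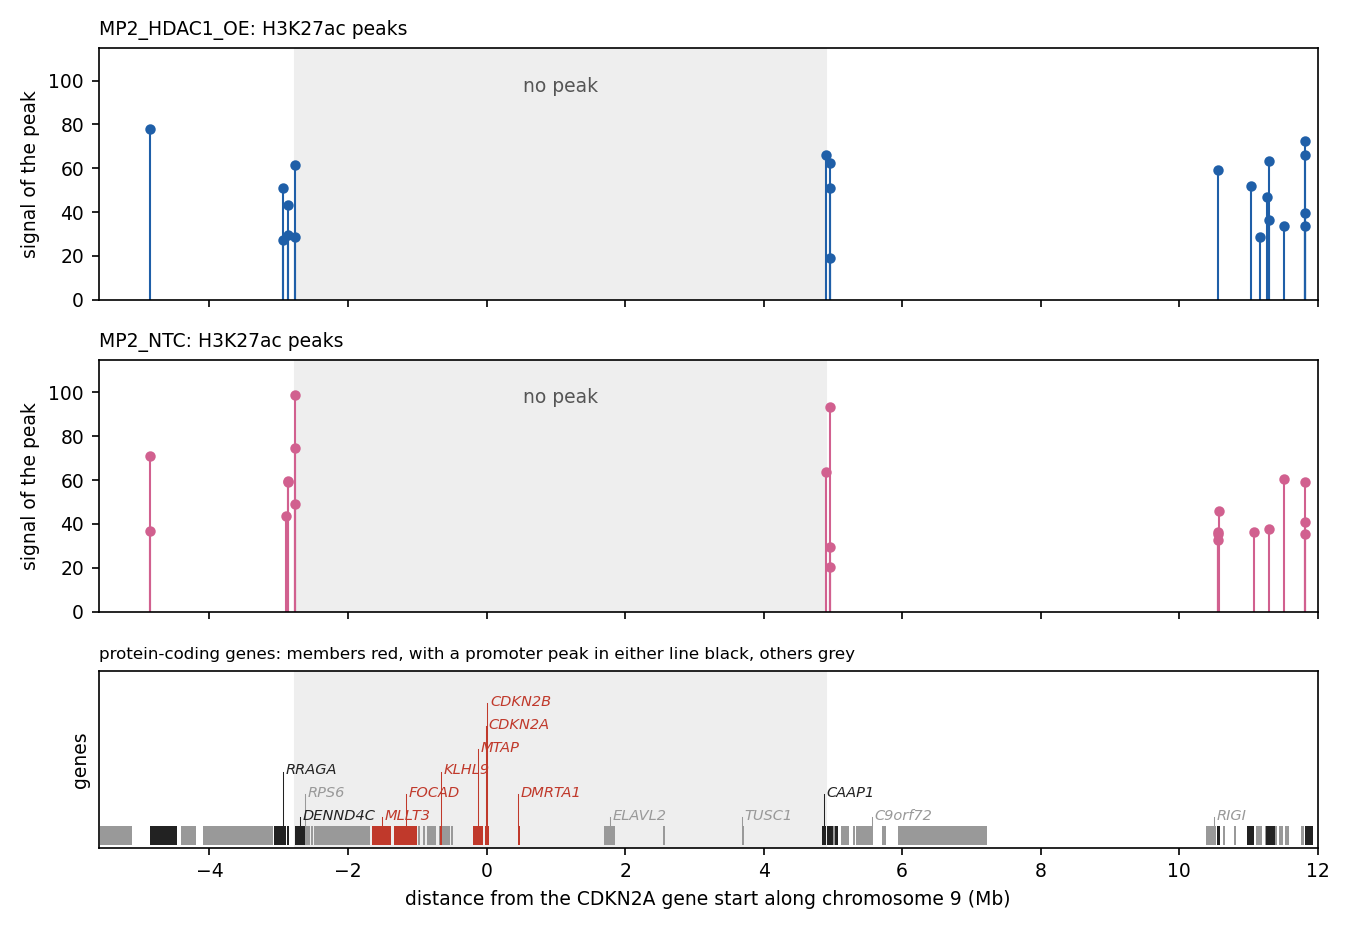
H3K27ac peaks around the 9p21 locus. Each stem is 1 peak of the MP2_HDAC1_OE list (top) or the MP2_NTC list (middle), placed by the distance of its summit from the *CDKN2A* start in Mb, with the authors' signal (no unit, not scaled between the lists) as its height. The grey band is the stretch without a peak in either list, 7.66 Mb long. The bottom panel shows protein-coding genes on the same axis, with the 7 members in red, all inside the band.

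Neither *CDKN2A* nor *CDKN2B*, the cell cycle inhibitor genes of the locus, had a peak. A gene was counted as having a peak when at least 1 bp of a peak lay in a window that reached 2 kb beyond and 1 kb into the gene at either of its ends. *CDKN2A* (chromosome 9, 21967752 to 21995324) had 0 peaks in each list, and its nearest peak was 2736.88 kb away in MP2_HDAC1_OE and 2736.86 kb away in MP2_NTC. *CDKN2B* (22002903 to 22009313) also had 0 peaks in each list, with the nearest at 2772.03 kb and 2772.01 kb. The antisense transcripts *CDKN2B-AS1* (*ANRIL*, 21994791 to 22128142) and *CDKN2A-AS1* (21967139 to 21967754) had 0 peaks as well.

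The metabolic neighbour and the flanking members were equally blank. *MTAP* (21802636 to 21941115) was 2571.76 kb from the nearest peak of MP2_HDAC1_OE and 2571.74 kb from that of MP2_NTC. *DMRTA1* (22446824 to 22455740), of the DM-domain transcription factors, was the member deepest in the stretch, 3215.95 kb and 3215.93 kb from a peak. *KLHL9* (21329665 to 21335404), an adaptor of the CUL3 ubiquitin ligase, was at 2098.79 kb and 2098.77 kb. The least distant members, *FOCAD* (20655625 to 20995950), which encodes a focal adhesion protein, and *MLLT3* (20341669 to 20622499), of the super elongation complex, were still 1424.75 kb and 1110.80 kb from a peak of MP2_HDAC1_OE, and 1424.73 kb and 1110.78 kb from one of MP2_NTC. So 0 of 7 members had a peak, where 43.4% of all protein-coding genes had one in MP2_HDAC1_OE and 42.3% in MP2_NTC. Neighbouring genes share their chromatin and their DNA copies, so the 7 are not 7 independent observations.

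The stretch also took in the type I interferon cluster and the genes around it. The 16 interferon genes, from *IFNB1* to *IFNE*, encode antiviral cytokines, and 0 of them had a peak. In the 13 of them with a promoter sequence in the reference table, the CpG observed over expected ratio, which compares the CG found with that predicted from the C and G content, reached at most 0.317. The other 15 protein-coding genes comprised the 7 members and *RPS6*, *ACER2*, *MAP1LC3BP1*, *SLC24A2*, *HACD4*, *ELAVL2*, *IZUMO3* and *TUSC1*. Those outside the 3.5 Mb first set for the locus were named after the extent of the stretch was seen.

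*RPS6* (19375715 to 19380236), a component of the small ribosomal subunit that growing cells depend on, lay 144.8 kb from the nearest peak in both lists. Of 76 genes of cytosolic ribosomal proteins, chosen for this comparison after *RPS6* was found in the stretch, 69 had a peak in MP2_HDAC1_OE and 72 in MP2_NTC. The share over all protein-coding genes was 43.4% and 42.3%. In both lists at once, 1 of them lacked a peak, and that was *RPS6*. The others without a peak in a single list were 6 in MP2_HDAC1_OE and 3 in MP2_NTC.

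Transcripts without a protein were blank too. *MIR31HG* (21454268 to 21559798), the host of miR-31, *FOCAD-AS1*, *MIR31* and *MIR491*, which lies inside *FOCAD*, had 0 peaks in each list. The 5p mature form of each microRNA, which silences messenger RNAs through its seed, is given from RefSeq with bases 2 to 8 in capitals, since no peak lay near either hairpin. The hairpins *MIR4473* and *MIR4474* lie in the stretch too.
hsa-miR-31-5p, chr9:21512158-21512178, minus strand: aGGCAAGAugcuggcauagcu
hsa-miR-491-5p, chr9:20716120-20716141, plus strand: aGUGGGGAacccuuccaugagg
The seeds of the 2 microRNAs differ.

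Long stretches without peaks were common, and this one was not the longest. Among 15435 peak-free stretches of MP2_HDAC1_OE it ranked 14 by length, and among 13760 of MP2_NTC it ranked 15. The median stretch was 26.5 kb in MP2_HDAC1_OE and 34.8 kb in MP2_NTC, and 648 and 656 stretches were 1 Mb or longer. Windows of 3.5 Mb, the size first set for the locus, were moved along the genome in steps of 0.5 Mb, and 11.2% of 5910 windows held no peak of MP2_HDAC1_OE and 11.5% no peak of MP2_NTC. An empty window of this size was thus not rare. Gaps at centromeres were not taken out of these ranks and shares. That of chromosome 9, for example, ranked 2 by length, with 22.3 Mb in MP2_HDAC1_OE and 22.4 Mb in MP2_NTC. How the 9p21 stretch would rank without such gaps was not tested.

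Empty windows with as many genes were rare. Of the 1782 windows with at least 25 protein-coding genes, 5 (0.281%) were empty in MP2_HDAC1_OE and 5 in MP2_NTC. In each list, 3 of them overlapped one another at this locus and the other two lay on chromosome 11 between 53 and 57 Mb, within a stretch made up mostly of olfactory receptor genes. By its number of protein-coding genes the 9p21 stretch ranked 9, tied with others of 31 genes, and 1 other stretch of each list, that of chromosome 11, was as long and held as many genes. Of the 31 genes at 9p21, 16 were clustered interferon genes. Without clustered families the 9p21 stretch held 15 genes and ranked 15 in MP2_HDAC1_OE and 20 in MP2_NTC. The windows were not counted again without such families.

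By promoters rich in CG the stretch ranked 1 in MP2_HDAC1_OE and shared rank 1 in MP2_NTC, but ranked 3 and 4 when a ratio of 0.75 was required in the definition that follows. A promoter was called CpG-rich when the 300 bases around an annotated start had at least 55% G and C and a CpG observed over expected ratio of at least 0.6. This held for 11 genes of the stretch: *RPS6*, *ACER2*, *SLC24A2*, *MLLT3*, *FOCAD*, *HACD4*, *KLHL9*, *CDKN2A*, *CDKN2B*, *ELAVL2* and *TUSC1*. That was more than in any other stretch of MP2_HDAC1_OE, where a stretch of chromosome 13 from 35157325 to 36999680 came next with 10. In MP2_NTC a stretch of chromosome X from 152942394 to 153687073 also held 11, and the chromosome 13 stretch (35157061 to 36999722) followed with 10. Stretches with at least 5 such genes numbered 85 in MP2_HDAC1_OE and 88 in MP2_NTC. The chromosome 11 stretch held 0.

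**Figure D2:**
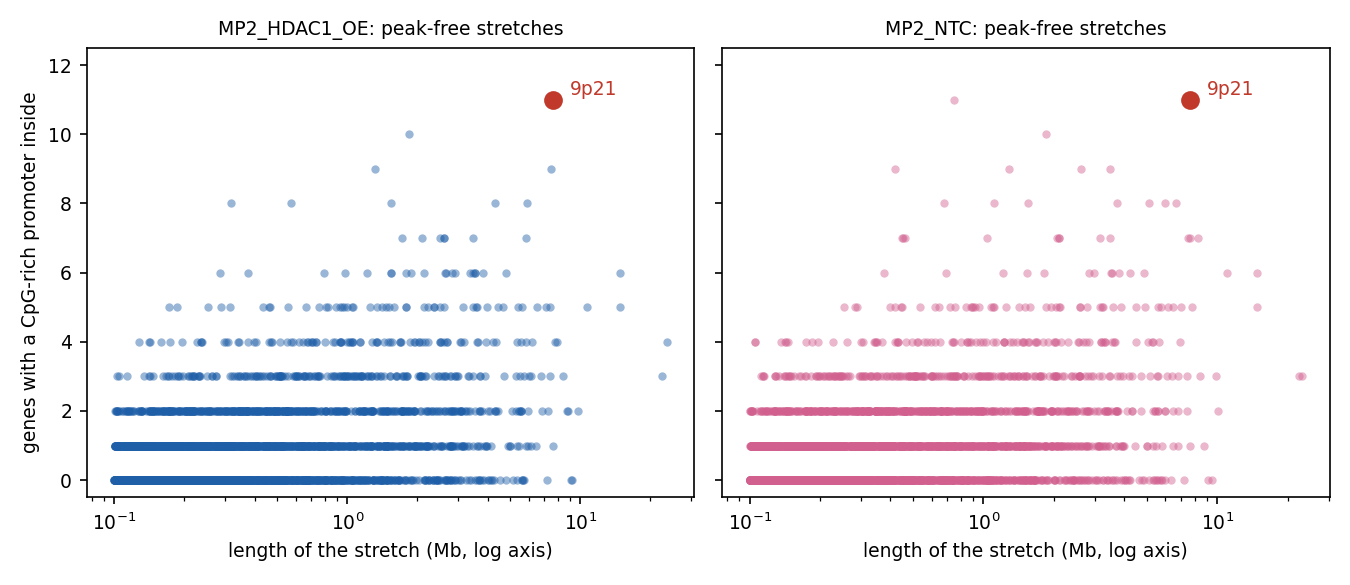
Peak-free stretches of at least 0.1 Mb in each list. Each point is 1 stretch, placed by its length in Mb (log axis) and by the number of genes with a CpG-rich promoter that lie wholly inside it, for MP2_HDAC1_OE (left) and MP2_NTC (right). The 9p21 stretch (red), 7.66 Mb with 11 such genes, has the highest count in MP2_HDAC1_OE and shares it with a shorter stretch of chromosome X in MP2_NTC.

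Over the genome, the more CG a promoter held, the more often its gene had a peak. The share of genes with a peak within 2 kb before to 1 kb after a start rose from 1.99% at a ratio under 0.1 to 74.0% between 1.1 and 1.2 in MP2_HDAC1_OE, and from 1.71% to 73.4% in MP2_NTC. Of 10312 genes with a CpG-rich promoter, 61.1% had a peak in MP2_HDAC1_OE and 59.8% in MP2_NTC. The 11 genes of the stretch had none, as its definition sets.

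The members spanned most of the upper range of CG content. The farther *CDKN2A* promoter had a ratio of 1.13 and the nearer one 0.764, and *CDKN2B* had 0.736. *FOCAD* had 0.892, *MLLT3* 0.714 and *KLHL9* 0.686. The remaining 2 members fell just short of the definition, *MTAP* by its G and C content of 53.0% with a ratio of 0.715, and *DMRTA1* by its ratio of 0.549 with a content of 62.3%. At the edge, the *DENND4C* promoters, with ratios of 0.613 and 0.924, lay in the same range and carried peaks.

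**Figure D3:**
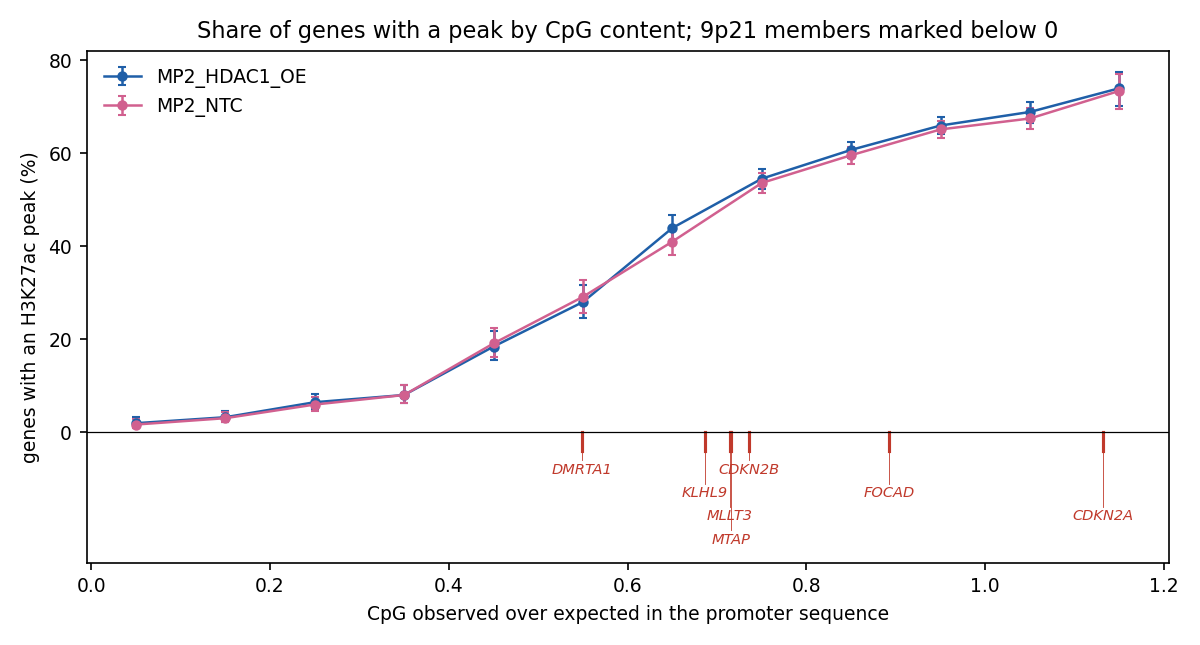
Share of genes with an H3K27ac peak (%) against the CpG observed over expected ratio of their promoter, in bins of 0.1, for MP2_HDAC1_OE (blue) and MP2_NTC (pink). Bars are 95% Wilson intervals. Red marks below 0 place the 7 members by their highest ratio, none of which had a peak, while the share of all genes rises to 74.0% and 73.4%.

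Beyond the left edge, the nearest peaks lay at the ends of *DENND4C*, *PLIN2*, *HAUS6* and *RRAGA*, with the next at *CNTLN*, a centrosomal protein gene, in both lists. The *DENND4C* peaks of MP2_HDAC1_OE had signals of 61.6 (19229996 to 19230365, above 73.6% of the peaks of its list) and 28.8 (19230054 to 19230873, above 20.1%). Those of MP2_NTC had signals of 99.0 (19229867 to 19230686, above 93.3%), 74.6 (19230074 to 19230893, above 80.9%) and 48.9 (19230640 to 19230868, above 49.2%). Signals were not compared between the lists, whose scaling is unknown. *PLIN2*, which encodes a coat protein of lipid droplets, also had peaks in both lists, the stronger with signals of 43.4 in MP2_HDAC1_OE (above 43.9%) and 59.8 in MP2_NTC (above 66.0%). *RRAGA*, a GTPase of amino acid sensing that adjoins *SAXO1*, had a peak of 51.0 (above 58.3%) in MP2_HDAC1_OE and none in MP2_NTC. *HAUS6*, a subunit of the augmin complex, had one of 43.7 (above 39.6%) in MP2_NTC and none in MP2_HDAC1_OE.

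Beyond the right edge, the first peak, at *CAAP1*, had a signal of 66.2 in MP2_HDAC1_OE (26892391 to 26892760, above 78.5% of its list) and of 63.7 in MP2_NTC (26892419 to 26892788, above 70.7%). The next, at *PLAA*, which takes part in ubiquitin-dependent sorting, had 62.6 in MP2_HDAC1_OE (26947247 to 26947534, above 74.7%) and 93.2 in MP2_NTC (26947240 to 26947619, above 91.4%). *DENND4C* and *CAAP1*, the genes at the edges, thus each had a peak stronger than most of its list in both lines. The nearest 3.5 Mb outside it were nevertheless sparse. On the left they held 7 peaks of MP2_HDAC1_OE and 8 of MP2_NTC, and on the right 4 peaks of each list. Of the genes with their midpoint on the left, 5 of 9 had a peak in MP2_HDAC1_OE and 4 of 9 in MP2_NTC. On the right it was 2 of 11 in each, *PLAA* and *IFT74*, whose ends meet at the same peak. On the left, *SAXO1* counted in MP2_HDAC1_OE through the peaks at the adjoining *RRAGA*. Such pairs are not separate observations. This midpoint rule left out *DENND4C* and *CAAP1*, whose peaks are among those counted. It took in *CCDC171*, whose peak lies beyond the left flank in both lists.

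On either side of the stretch, a smaller share of genes on the short arm of chromosome 9 had a peak than beyond the centromere. Before the stretch, 18 of 66 genes (27.3%, 95% Wilson interval 18.0 to 39.0%) had a peak in MP2_HDAC1_OE and 16 (24.2%, 15.5 to 35.8%) in MP2_NTC. Between the stretch and the gap at the centromere, 42 of 114 (36.8%, 28.6 to 46.0%) had one in MP2_HDAC1_OE and 40 (35.1%, 26.9 to 44.2%) in MP2_NTC. Beyond the centromere it was 282 of 556 (50.7%) and 270 (48.6%). Over all chromosomes the share was 43.4% in MP2_HDAC1_OE and 42.3% in MP2_NTC. The intervals after the stretch include it, and those before the stretch lie below it. The share of the stretch itself is 0 by its definition, and no interval was set on it. The intervals given for the other segments cover counting error only and treat genes as independent, which neighbours are not.

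For genes with a CpG-rich promoter, the shares on the short arm were also below that beyond the centromere, with no test of the difference. Here a peak counted when it lay within 2 kb before to 1 kb after an annotated start, not at the ends of the gene. These counts are therefore not a part of those for all genes above. Before the stretch 18 of 46 had a peak in each list (39.1%, 26.4 to 53.5%). After it, 32 of 69 had one in MP2_HDAC1_OE (46.4%, 35.1 to 58.0%) and 27 in MP2_NTC (39.1%, 28.5 to 50.9%), and beyond the centromere 65.9% and 64.7%. Peaks per Mb were 2.81 before and 4.40 after the stretch in MP2_HDAC1_OE and 2.65 and 5.67 in MP2_NTC, against 10.1 and 9.54 beyond the centromere. What part the lower level of the short arm has in the blank at 9p21 was not tested.

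**Figure D4:**
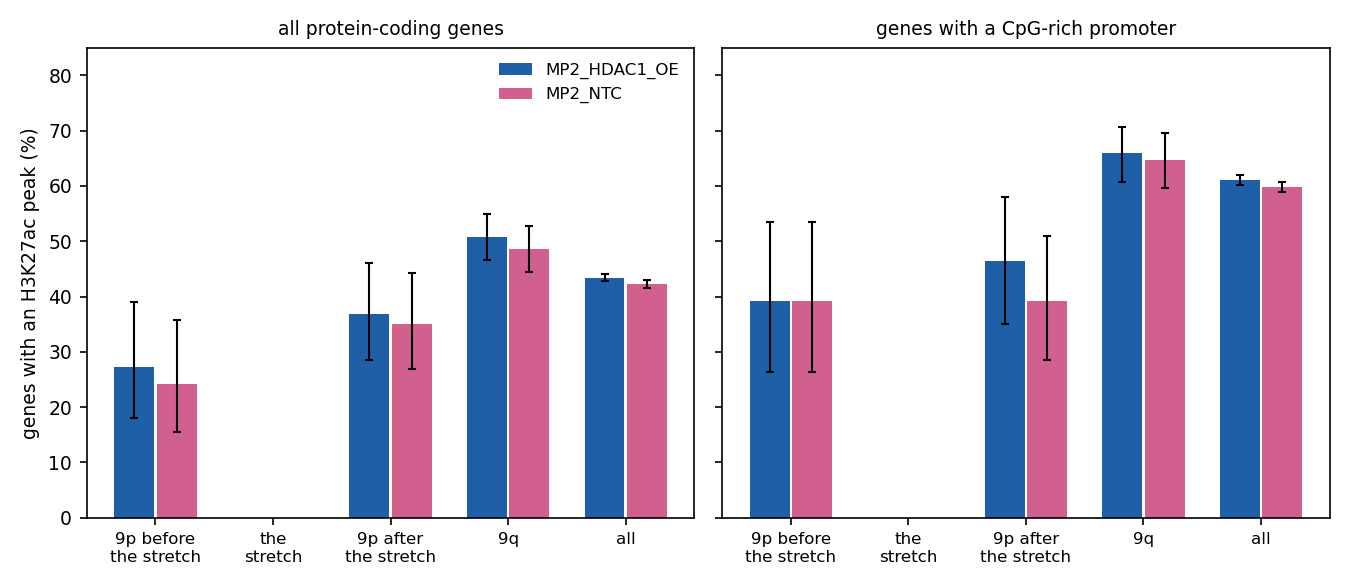
Share of protein-coding genes (left) and of genes with a CpG-rich promoter (right) that had an H3K27ac peak (%), for the segments of chromosome 9 and for all chromosomes, in MP2_HDAC1_OE (blue) and MP2_NTC (pink). Peaks were counted at the gene ends on the left and at annotated starts on the right, so the panels follow different rules. Bars start at 0 and error bars are 95% Wilson intervals for counting error. The stretch is at 0 by its definition, with no interval, and both neighbouring segments of the short arm lie below the long arm, 9q.

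The blank was shared by both lines. The stretch of MP2_HDAC1_OE held 0 summits of MP2_NTC peaks, and the reverse was also true, which was common among long stretches. Of 57 stretches of at least 5 Mb in MP2_HDAC1_OE, 25 held 0 summits of MP2_NTC peaks, and of 63 in MP2_NTC, 25 held 0 of MP2_HDAC1_OE. Inside the 3.5 Mb first set for the locus there were 0 merged regions, so there was nothing for the lines to share or to differ in.

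Genes that act with the members had peaks elsewhere in the genome. Of 10 genes of the pathway of the INK4 inhibitors and of p14ARF, 7 had a peak in MP2_HDAC1_OE and 6 in MP2_NTC, 5 of them in both, where the share over all protein-coding genes was 43.4% and 42.3%. *CDKN2D*, which encodes p19INK4d, had its strongest peak above 97.6% of the MP2_HDAC1_OE list (signal 108) and above 89.0% of the MP2_NTC list (87.9). These were different sites, just outside opposite ends of the gene (10566460 to 10568979). The peak of MP2_HDAC1_OE ran from 10565666 to 10565904 and that of MP2_NTC from 10569126 to 10569945. *CDKN2C*, which encodes p18INK4c, had 3 peaks at its ends in MP2_NTC, the strongest 71.4 (above 78.3%), and in MP2_HDAC1_OE 0 at its ends but 1 or more within the gene. *CDK4*, *CCND3*, *RB1* and *MDM2*, which encode the kinase, a cyclin, the retinoblastoma protein that they phosphorylate and the target of p14ARF, had peaks in both lists. *CDK6* and *CCND2* had none at their ends in either, although a peak of MP2_HDAC1_OE lay within *CDK6*.

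Of 13 genes of methionine salvage, polyamine synthesis and the PRMT5 complex, 10 had a peak in MP2_HDAC1_OE and 11 in MP2_NTC, 9 of them in both, beside the same 43.4% and 42.3% of all genes. *MTAP* was the 1 gene of this list without a peak in either. *MAT2A*, which makes S-adenosylmethionine, had its strongest peak above 94.5% of the MP2_HDAC1_OE list (signal 93.3) and above 99.3% of the MP2_NTC list (146). *PRMT5*, the arginine methyltransferase that methylthioadenosine inhibits, had one above 82.8% (71.2) and above 69.5% (62.7). These *PRMT5* peaks (22918648 to 22918982 and 22918347 to 22919166) lay outside the gene (22920529 to 22929376) and may belong to an adjoining one. *RIOK1*, a partner of PRMT5, had its strongest peak above 95.2% (95.7) and above 90.0% (89.7). Of the paralogues of the flanking members, *MLLT1* had a peak in both lists, *KLHL13* in MP2_NTC, and *DMRTA2* in neither. Either end of a gene counted, so a peak of an adjoining gene can be among these.

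The lists carried peaks at 3 of 5 epithelial marker genes in each line (*KRT8*, *KRT18* and *KRT19*, but not *EPCAM* or *CDH1*) and at both mesenchymal ones, *VIM* and *ZEB1*. *KRT8* and *KRT18* share their strongest peak in each list, so they are not separate observations. No peak overlapped *KRT19* itself, and the nearest lay 1.218 kb from the gene in MP2_HDAC1_OE and 0.931 kb from it in MP2_NTC. The strongest *KRT19* peak of MP2_NTC was weak (signal 18.6, above 6.86% of its list). The acinar, islet, leukocyte and endothelial markers, 10 genes in all, had 0 peaks at their ends. Over all protein-coding genes, 43.4% had a peak in MP2_HDAC1_OE and 42.3% in MP2_NTC. At the targeted gene, *HDAC1* (32292083 to 32333626), the strongest peak had a signal of 91.6 in MP2_HDAC1_OE (above 93.9% of its list) and 46.7 in MP2_NTC (above 45.2%). These were different sites. The peak of MP2_HDAC1_OE (32291469 to 32291891) lay just outside the gene, and that of MP2_NTC (32292210 to 32292433) just inside it.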

How the data were processed

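H3K27ac was measured by ChIP-sequencing (75 bp reads, antibody ab4729) in MP2_HDAC1_OE and MP2_NTC. The authors ran the ENCODE pipeline and deposited 1 list of IDR-optimal peaks per line, called on its pooled samples against the controls. Per the labels, reads were aligned to hg38, and the submitters' processing notes name BWA 0.7.12 and Picard 1.88. The peak caller is not given in the sources used here. The signal that the authors deposited for each peak has an unknown scaling between lists and was ranked within each list only. Depth is unknown.

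Peak-free stretches are gaps between neighbouring peaks of a chromosome. Genes and promoter sequences came from RefSeq (GRCh38.p14). Of 19974 protein-coding genes on the 23 chromosomes with peaks, 15812 had a promoter sequence. Chromosome 8 had none in the table used, and 82.1% of genes on the other 22 chromosomes had one, against 28 of 31 in the 9p21 stretch, so CpG-rich genes may be undercounted more elsewhere and the rank of the stretch by them may be too high. Shares have 95% Wilson intervals. No test was run, since each line has 1 pooled list. The text names the members, the other genes of the locus, the genes at the edges, fixed lists and the stretches with the most CpG-rich genes. Of the fixed lists, 1 gene is not reported here and was left out of the counts. Members and lists were chosen with earlier results of these data known. Alternatives changed the promoter window, the overlap, the threshold of signal and the definition of CpG-rich. Python 3.11.15 with numpy 2.4.6, scipy 1.17.1 and matplotlib 3.10.9 was used, and the methods were tested on simulated data.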

Additional observations from a re-analysis of the deposited data

How the results depend on the processing

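The length of the stretch, its rank by length, the 0 of 7 members with a peak and the 0 regions in the 3.5 Mb first set for the locus kept their values or moved by less than 1.5 times under every alternative tried for each, among them summits in place of intervals, the 75% of peaks with the highest signal, peaks of both lists together, and gene bodies in place of promoters. Of 71 alternative values over 21 results, 45 stayed within 1.5 times the reported value or, for shares of genes, within its 95% interval, and 26 did not. Without clustered gene families the genes of the stretch fell from 31 to 15 in each list, and its rank by genes from 9 to 15 in MP2_HDAC1_OE and to 20 in MP2_NTC. With a CpG ratio of at least 0.75 in place of 0.6, its rank by CpG-rich promoters went from 1 to 3 in MP2_HDAC1_OE and to 4 in MP2_NTC, and the share of such promoters with a peak was 63.7% and 62.4%.

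The flanks were to lie between the stretch and the ends of the 3.5 Mb first set and had no length, so 3.5 Mb outside the edges was used, chosen after seeing the data. Peaks per Mb on the left of MP2_HDAC1_OE were 2, but 1.14 by non-overlapping intervals, 1.14 with the strongest 75% of peaks and 3.43 over 7 Mb, and on the right 1.14, but 2.14 over 7 Mb. In MP2_NTC the left had 2.29, but 1.14 by intervals, and the right 1.14, but 0.571 with the strongest 75% and 2 over 7 Mb. The share of all protein-coding genes with a peak ranged from 42.0% to 48.1% in MP2_HDAC1_OE and from 40.5% to 47.1% in MP2_NTC with the window and threshold, the members staying at 0. No replicate could be left out. No paired analysis was possible because the samples of a line were merged into 1 list before deposit. Peaks below the authors' threshold, depth and copy number cannot be judged from these lists.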

Other observations

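A second long stretch without peaks followed the 9p21 stretch after the few peaks at *CAAP1* and *PLAA*. It ran from 26956237 to 32552037 in MP2_HDAC1_OE (5.60 Mb) and from 26957091 to 32550963 in MP2_NTC (5.59 Mb). It held 11 protein-coding genes in each list, 5 of them with a CpG-rich promoter. Among its genes were *TEK*, a receptor of endothelial cells, *C9orf72*, known from repeat expansions in motor neuron disease, *ACO1*, the cytosolic aconitase, and *RIGI*, a sensor of viral RNA. It ended at *TOPORS*, which encodes a ubiquitin and SUMO ligase, with a peak in both lists.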
